A study of Mus musculus with 6 samples.

Results

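The genes described here are the axon guidance cues, their receptors, the ephrins and Eph receptors, and the cadherins and protocadherins measured in cultured mouse embryonic fibroblasts. They were chosen by name: every probe with a single gene symbol beginning with Sema, Plxn, Nrp, Epha, Ephb, Efna, Efnb, Ntn, Slit, Robo, Unc5, Cdh or Pcdh. The rule found 51 of the 7606 genes named on the arrays, with 72 of the 10653 named probes. RNA was read on 6 Illumina bead arrays, with 3 arrays for wild-type fibroblasts and 3 for fibroblasts labelled CypD -/-. Ppif encodes cyclophilin D, which folds proteins in mitochondria and regulates the permeability transition pore. Both groups were on the C57BL/6 background, came from E13.5 embryos and were grown in the same serum-containing medium, with no treatment given in the labels. The labels do not say how many embryos or cultures lie behind the replicate letters A, B and C, so the p-values speak for the variation among these arrays alone, and that variation may be technical.

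Semaphorins, ephrins, netrins and Slits are cues, some secreted and some held on the cell surface, that steer growing axons and migrating cells by attraction or repulsion. Their receptors, the plexins with neuropilins, the Eph tyrosine kinases, the Unc5 proteins and the Robos, act on the cytoskeleton. Cadherins and protocadherins hold like cells together through calcium-dependent contacts. Fibroblasts use both systems in contact repulsion, cell sorting and migration, and the title of the series names cell motility directed by chemokines.

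Expression is given as normalized log2 intensity of a gene's brightest probe, and a gene is said to have risen or fallen where the limma adjusted p over all 27168 tested probes was under 0.05. The 6 arrays had median raw intensities of 223 to 251, and normalized arrays of a genotype correlated at 0.994 to 0.996, those of different genotypes at 0.982 to 0.984. Ppif read 13.57, 13.70 and 13.62 on wild-type arrays and 12.25, 12.35 and 12.18 on knockout arrays, a 2.59-fold fall (log2 fold change -1.37 ± 0.066, SE, n = 3 a group, adjusted p = 2.96e-09 by limma). Its probe stayed bright in knockout, at the 93.7th percentile of all probes. Where that probe lies relative to the deleted part was not analysed here, so the remaining signal does not check the deletion. Of 16 fibroblast markers 11 were tested, and Col1a1, Col5a1 and Fn1 were bright in both groups, at 13.99, 14.88 and 13.02 in wild type and 13.36, 14.73 and 13.27 in knockout. Of the 11, 3 rose (Pdgfra by 1.47, Col3a1 by 1.13 and Pdgfrb by 0.41), 4 fell (S100a4 at -1.62, Dcn at -0.64, Col1a1 at -0.63 and Col1a2 at -0.36) and 4 did not pass. These moves were opposite, and the mean level of the 11 lay between 10.66 and 10.73 in wild type and between 10.62 and 10.72 in knockout. The Vim probe was dim at 7.84 and 7.60, and Thy1 had no named probe.

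All 51 genes passed the filter on dim probes, as did 7605 of the 7606 named genes. Of the 51, 29 changed in the knockout cells, 18 upward and 11 downward. The knockout cells had more mRNA of the membrane-held cues Sema5a, Sema7a, Efnb2 and Efna5 and of the adhesion genes Pcdhb22 and Pcdh7. They had less of the receptors Nrp2 and Robo1, of the membrane-held semaphorin Sema4f, and of the cadherins Cdh3, Cdh13 and Cdh2. These kinds did not move together, since the membrane-held Efnb1 fell and the receptors Plxna2, Epha1, Plxnb1 and Ephb4 rose. The cadherins Cdh10 and Cdh11 and the secreted cues Sema3a, Sema3e, Ntn3 and Slit2 also rose. Not every probe of Robo1, Pcdh7, Cdh11, Ephb4 and Slit2 passed. The calls of Efnb1, Plxnb1, Cdh11 and Slit2 were lost when some single arrays were left out. The 29 genes make 56.9% of the members, against 43.6% of all 7605 named genes tested. Upward calls made 35.3% of the members against 21.8%, and downward calls 21.6% against 21.8%. Probes were named only where they varied over the 6 arrays and were not among the dimmest, which can raise all of these shares. No test was made of whether the members differ from other genes. In whole cultures, fewer cells that express a gene and less RNA per cell cannot be told apart.

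The size of change was also described. The median change of a called member was 1.48-fold, against 1.36-fold for all called named genes. At least a 1.5-fold change was seen in 14 members (27.5%, against 14.1% of named genes) and at least a 2-fold change in 8 (15.7%, against 6.07%). The count of 8 fell to 3 without background correction and to 3 in the authors' processed values, where Pcdhb22, Cdh3 and Robo1 stayed past 2-fold. The values of the groups did not overlap in 37 members (72.5%, against 56.1% of named genes). Of 17 members whose means lay under the 70th percentile of all probes in both groups, 4 were called, and of the other 34, 25 were called. By brightest probe, Pcdh9 alone had a group mean below the filter, in wild type, so it passed only through the knockout arrays, and it is 1 of the 8 and of the 18 that rose.

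**Figure D1:**
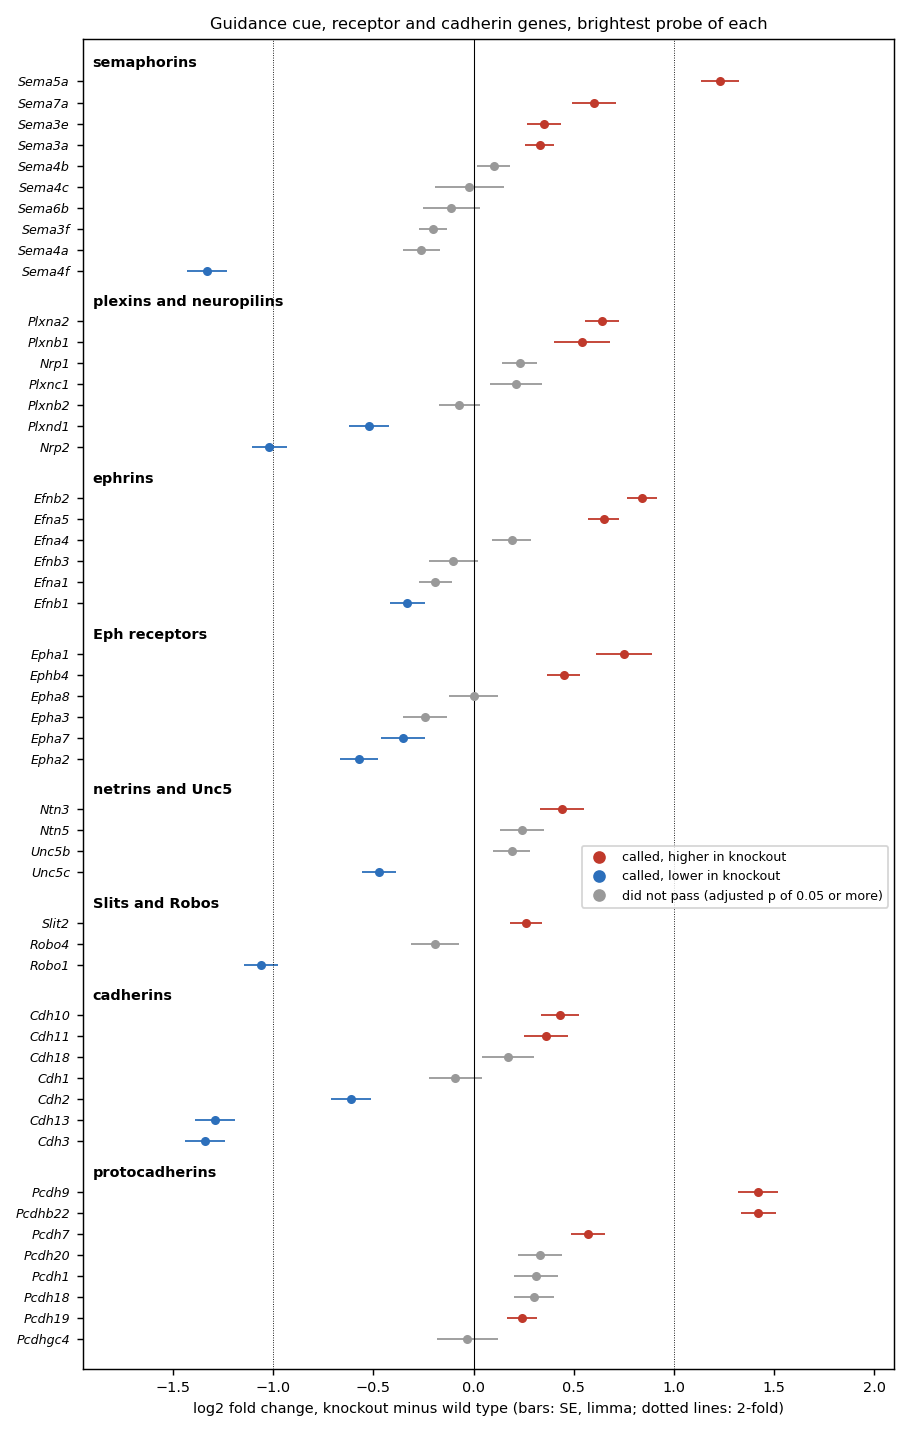
Log2 fold change of each member's brightest probe, knockout minus wild type, with SE bars (3 arrays a group), arranged by family and coloured by call; the dotted lines mark 2-fold. Every family holds called genes, rises reach 1.42 (Pcdhb22, and Pcdh9 from a wild-type level below the filter) and falls reach -1.34 (Cdh3).

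Ligands and receptors were counted apart. Of 19 ligand genes (semaphorins, ephrins, netrins and Slit2) 8 rose, 2 fell and 9 did not pass, with a median log2 fold change of 0.19. Of 17 receptor genes 4 rose, 6 fell and 7 did not pass, with a median of -0.07. Of 15 cadherin and protocadherin genes 6 rose, 3 fell and 6 did not pass, with a median of 0.30. Over all 7605 named genes the median was 0.008, and upward and downward calls made 21.8% each. Some of the calls counted by role were lost when certain single arrays were left out. These were Slit2 and Efnb1 among the ligands, Epha7 and Plxnb1 among the receptors, and Cdh11 and Pcdh19 among the cadherins and protocadherins. The split by role was made after values had been seen and was not tested.

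Of the members that changed at least 2-fold, Cdh3, Cdh13 and Pcdhb22 had no matched promoter window in the RefSeq table of GRCm38.p6. The promoters of the others are shown, to give the sequence before a start site of genes the results turn on. That of Efnb2 is added as the ephrin of the greatest change. Each is the 250 bases before an annotated transcription start, 5′ to 3′ on the gene's strand. For Robo1 and Pcdh9 that start lies inside the gene, which spans chr16:72027518-73047491 and chr14:93013700-93892834, so the sequence before the outermost start is not shown. Capitals mark the E-box CAGGTG or its reverse complement CACCTG, the sequence bound by the Snail and ZEB repressors that are best known for silencing cadherins. The windows lie at chr15:32244563-32244812 (plus strand) for Sema5a, chr14:93890680-93890929 (minus) for Pcdh9, chr8:8661243-8661492 (minus) for Efnb2, chr6:82939770-82940019 (minus) for Sema4f, chr16:72662899-72663148 (plus) for Robo1 and chr1:62703067-62703316 (plus) for Nrp2. Pcdh9 has 2 windows in the table that overlap, and 1 is shown.
Sema5a: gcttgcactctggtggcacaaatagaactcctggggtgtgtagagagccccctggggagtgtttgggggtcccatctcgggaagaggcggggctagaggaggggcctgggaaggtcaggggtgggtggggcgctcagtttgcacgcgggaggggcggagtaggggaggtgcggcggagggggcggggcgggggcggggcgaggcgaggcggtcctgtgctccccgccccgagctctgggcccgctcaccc
Pcdh9: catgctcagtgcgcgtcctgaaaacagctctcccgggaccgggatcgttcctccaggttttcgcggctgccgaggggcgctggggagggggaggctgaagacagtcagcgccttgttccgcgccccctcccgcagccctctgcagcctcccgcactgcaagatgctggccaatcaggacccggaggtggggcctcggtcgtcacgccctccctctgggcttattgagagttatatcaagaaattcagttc
Efnb2: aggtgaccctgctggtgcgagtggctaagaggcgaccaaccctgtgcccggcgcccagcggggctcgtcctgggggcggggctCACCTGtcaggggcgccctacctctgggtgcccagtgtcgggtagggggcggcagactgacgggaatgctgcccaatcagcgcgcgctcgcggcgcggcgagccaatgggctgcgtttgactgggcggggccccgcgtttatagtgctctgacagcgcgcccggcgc
Sema4f: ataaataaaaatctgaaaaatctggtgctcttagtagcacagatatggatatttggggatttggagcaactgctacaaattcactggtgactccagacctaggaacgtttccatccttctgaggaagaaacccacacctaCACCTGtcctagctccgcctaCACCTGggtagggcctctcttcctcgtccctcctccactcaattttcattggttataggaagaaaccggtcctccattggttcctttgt
Robo1: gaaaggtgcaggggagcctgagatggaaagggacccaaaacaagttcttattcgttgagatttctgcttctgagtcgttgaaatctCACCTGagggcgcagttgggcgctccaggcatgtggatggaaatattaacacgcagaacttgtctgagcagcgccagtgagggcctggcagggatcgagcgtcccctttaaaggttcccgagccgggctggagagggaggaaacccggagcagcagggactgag
Nrp2: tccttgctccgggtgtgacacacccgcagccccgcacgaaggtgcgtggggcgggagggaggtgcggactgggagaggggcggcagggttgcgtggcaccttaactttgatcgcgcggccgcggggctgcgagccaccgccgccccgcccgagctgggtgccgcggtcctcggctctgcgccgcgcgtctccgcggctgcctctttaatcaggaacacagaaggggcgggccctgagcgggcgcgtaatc

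Sema5a, Pcdh9 and Nrp2 held no E-box of this kind in the window, Efnb2 and Robo1 held 1 each, and Sema4f held 2. The first base of the match lay 167 bases before the start in Efnb2, 164 in Robo1, and 110 and 89 in Sema4f. Promoter windows were matched for 41 of the 51 members. No window was matched for Cdh1, Cdh2, Cdh3, Cdh11, Cdh13, Efnb3, Pcdh1, Pcdhb22, Pcdhgc4 or Sema3f. The changed cadherins Cdh2, Cdh3, Cdh11 and Cdh13 were thus not searched for the E-box. The E-box was in 6 of 41 member genes (14.6%), against 19.4% of 27025 genes in the table. It stood in 2 of 16 members that rose and in 2 of 8 that fell, Robo1 among the latter by its window inside the gene. Both strands were also searched for TGANTCA, the AP-1 site, found in 2 members (4.9%, against 7.8%), and for GTGGGAA, the site of the Notch factor RBPJ, found in 2 (4.9%, against 6.2%). The printed windows held no match of these other motifs. GC content had a median of 64.4% over 51 member windows and 52.4% over all 32851, and was 64.0% for windows of members that rose and 64.8% for those of members that fell.

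Semaphorins changed in both directions, with 4 of 10 up, 1 down and 5 not passing. Sema5a, a transmembrane semaphorin with thrombospondin repeats, read 7.74, 7.75 and 7.61 on wild-type arrays A, B and C and 8.99, 8.91 and 8.91 on knockout arrays. Every knockout array lay above every wild-type array, a 2.35-fold rise (1.23 ± 0.094, SE, limma adjusted p = 3.22e-07). A second Sema5a probe rose 2.01-fold (adjusted p = 1.25e-05). Sema4f, a transmembrane semaphorin, went the other way, with 8.71, 8.55 and 8.82 in wild type and 7.40, 7.29 and 7.40 in knockout. The groups were far apart, and the fall was 2.51-fold (-1.33 ± 0.10, adjusted p = 4.29e-07), with -0.60 by its other probe (adjusted p = 0.00228). Sema7a, which is held in the membrane by a lipid anchor and binds integrins and plexin C1, read 7.66, 7.65 and 7.55 in wild type and 8.25, 8.38 and 8.05 in knockout. It rose 1.52-fold without overlap (0.60 ± 0.11, adjusted p = 0.00107).

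Secreted semaphorins of class 3 changed by under 1.5-fold. Sema3a, the collapsing factor of growth cones, rose 1.26-fold (0.33 ± 0.074, adjusted p = 0.00533), and Sema3e, the ligand of plexin D1, 1.28-fold (0.35 ± 0.085, adjusted p = 0.00833). Sema3f, which acts through neuropilin 2, read 12.34, 12.25 and 12.43 in wild type and 12.08, 12.18 and 12.18 in knockout. Its groups did not overlap, yet the difference of -0.20 ± 0.070 did not pass (adjusted p = 0.0631), whereas its other probe passed at -0.29 (adjusted p = 0.00522). It also passed without wild-type array B (adjusted p = 0.0457), with median scaling (adjusted p = 0.0223) and with the filter set to the 70th percentile (adjusted p = 0.0436). The other membrane semaphorins did not pass, at -0.26 for Sema4a, 0.10 for Sema4b, -0.02 for Sema4c and -0.11 for Sema6b. Sema4a passed with the filter set to the 70th percentile (adjusted p = 0.0433).

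Among the receptors of semaphorins, 2 of 7 rose, 2 fell and 3 did not pass. Nrp2, neuropilin 2, the co-receptor for class 3 semaphorins and for lymphatic growth factors, read 9.50, 9.36 and 9.42 in wild type and 8.40, 8.42 and 8.38 in knockout. This was a 2.03-fold fall with no overlap (-1.02 ± 0.087, adjusted p = 1.08e-06). Its relative Nrp1, the co-receptor for Sema3a and VEGF, was bright on all arrays, with 13.01, 12.82 and 13.23 against 13.29, 13.18 and 13.30. Those groups overlapped, and the difference of 0.23 ± 0.088 did not pass (adjusted p = 0.0818). It passed without wild-type array C (0.34, adjusted p = 0.00278) and with array weights (0.27, adjusted p = 0.0269), and the other Nrp1 probe passed at 0.21 (adjusted p = 0.0416).

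Plexins, the signalling receptors themselves, also divided. Plxna2 read 9.13, 9.21 and 9.02 in wild type and 9.76, 9.74 and 9.78 in knockout, a 1.56-fold rise with no overlap (0.64 ± 0.086, adjusted p = 9.53e-05). Plxnd1, which is best known from blood vessels and binds Sema3e, fell 1.43-fold (-0.52 ± 0.10, adjusted p = 0.00229), with -0.31 by its other probe (adjusted p = 0.0443). Plxnb1, a receptor for class 4 semaphorins, rose by 0.54 ± 0.14 (adjusted p = 0.0158) from a dim wild-type level of 7.39. That call was lost without wild-type array B (0.37, adjusted p = 0.0653) or knockout array B (0.44, adjusted p = 0.0900). Plxnb2 (-0.07) and Plxnc1 (0.21), the receptor of Sema7a, did not pass.

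Ephrins, the membrane-held ligands of Eph kinases, gave 2 rises, 1 fall and 3 genes that did not pass. Efnb2, a transmembrane ephrin and marker of arterial endothelium, read 10.39, 10.50 and 10.50 in wild type and 11.25, 11.33 and 11.33 in knockout. The knockout arrays stood well above all wild-type arrays, by 1.79-fold (0.84 ± 0.074, adjusted p = 1.52e-06). Efna5, a lipid-anchored ephrin, read 12.81, 12.58 and 12.82 in wild type and 13.46, 13.43 and 13.27 in knockout. It rose 1.57-fold without overlap (0.65 ± 0.077, adjusted p = 2.69e-05). Efnb1, an X-linked ephrin that sorts cells at tissue boundaries, fell 1.25-fold (-0.33 ± 0.088, adjusted p = 0.0170). This call was lost without knockout array A (adjusted p = 0.0783) or B (adjusted p = 0.0582). Efna1 read 11.12, 11.04 and 11.15 in wild type and 10.78, 10.89 and 11.06 in knockout, which overlapped and did not pass (-0.19 ± 0.084, adjusted p = 0.138). Efna4 (0.19, with 0.29 by its other probe) and Efnb3 (-0.10) did not pass either.

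Of 6 Eph receptors 2 rose, 2 fell and 2 did not pass. Ephb4, the receptor of ephrin-B2, rose 1.37-fold (0.45 ± 0.083, adjusted p = 0.00133), with 0.52 by a second probe (adjusted p = 0.000514) and 0.33 by another that did not pass (adjusted p = 0.0654). Epha2, a receptor of ephrin-A1 found in many adherent cells, read 9.72, 9.64 and 9.93 in wild type and 9.14, 9.23 and 9.22 in knockout. The knockout arrays were all lower, by 1.48-fold (-0.57 ± 0.094, adjusted p = 0.000554). Epha1 was dim, at 7.09, 7.21 and 6.71 in wild type and 7.55, 7.96 and 7.74 in knockout. Its groups were apart and it rose 1.68-fold (0.75 ± 0.14, adjusted p = 0.00184), from the 45.7th percentile of all probes, where background is not separated from expression.

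The remaining Eph receptors were less settled. Epha7 fell 1.27-fold (-0.35 ± 0.11, adjusted p = 0.0333), but the call was lost without wild-type array A or C (adjusted p = 0.0969 and 0.0881) and without knockout array A, B or C (adjusted p = 0.0825, 0.128 and 0.0566). Epha3 had a difference of -0.24 by its brightest probe, which did not pass (adjusted p = 0.166), and a 1.89-fold fall by its other probe (-0.92 ± 0.12, adjusted p = 4.94e-05). The knockout mean of that other probe lay at the 37.7th percentile of all probes, under the filter, so the size of its fall is not settled. The probes of Epha3 thus disagree in size. Epha8 read 7.94, 7.90 and 7.69 in wild type and 8.07, 7.86 and 7.62 in knockout, a difference of 0.00 ± 0.12 (adjusted p = 0.990).

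In the Slit and Robo system the ligand rose slightly and a receptor fell. Robo1, the main receptor of Slit2, read 11.71, 11.69 and 11.54 in wild type and 10.74, 10.51 and 10.50 in knockout. No array of one group reached the other, and the fall was 2.09-fold (-1.06 ± 0.086, adjusted p = 6.12e-07). A second Robo1 probe, with both means near the 66th percentile, gave 0.05 and did not pass (adjusted p = 0.870). Slit2, a secreted repellent, had a 1.20-fold rise on its brightest probe (0.26 ± 0.080, adjusted p = 0.0340), and the 3 further probes, at 0.13, -0.11 and 0.17, missed the threshold. The Slit2 call was lost without wild-type array B or C (adjusted p = 0.119 and 0.0745), without knockout array A or B (adjusted p = 0.120 and 0.109), with median scaling (adjusted p = 0.0866) and without the intensity trend (adjusted p = 0.0864). Robo4, an endothelial Robo, read 7.66, 7.67 and 7.65 in wild type and 7.68, 7.27 and 7.47 in knockout, which overlapped (-0.19 ± 0.12, adjusted p = 0.312).

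Of the netrins and Unc5 receptors 1 rose, 1 fell and 2 did not pass. Unc5c, which turns the netrin response into repulsion, read 9.63, 9.53 and 9.55 in wild type and 9.08, 9.16 and 9.06 in knockout. It fell 1.39-fold with no overlap (-0.47 ± 0.085, adjusted p = 0.00109). Further Unc5c probes read -0.43 and -0.40, which passed, and -0.21, which did not (adjusted p = 0.254). Ntn3, a netrin, rose 1.36-fold (0.44 ± 0.11, adjusted p = 0.00833). Unc5b read 9.61, 9.43 and 9.60 in wild type and 9.87, 9.64 and 9.69 in knockout. Its groups stood just apart, and 0.19 ± 0.094 did not pass (adjusted p = 0.199), nor did Ntn5 at 0.24 (adjusted p = 0.169). The plot of ligands beside receptors shows these genes array by array. Whether a ligand's change differed from that of its receptor was not tested.

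**Figure D2:**
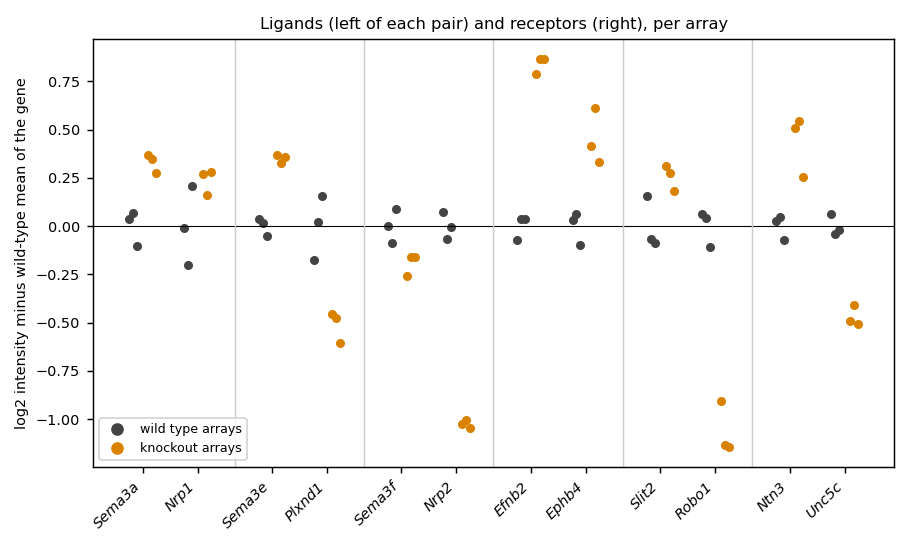
Log2 intensity of each array minus the gene's wild-type mean, for 6 ligands each beside a receptor known to bind it or, for Ntn3, of the netrin receptor family (grey, 3 wild-type arrays; orange, 3 knockout arrays). Efnb2 and Ephb4 are both higher in knockout, by 0.84 and 0.45, while Sema3e and Slit2 are higher and Plxnd1 and Robo1 lower, by -0.52 and -1.06.

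Of the 7 cadherin genes, which encode classical adhesion molecules and their relatives, 2 rose, 3 fell and 2 did not pass. Cdh3, P-cadherin, an adhesion molecule of basal epithelia and placenta, read 8.96, 8.74 and 8.86 in wild type and 7.38, 7.56 and 7.59 in knockout. The groups were well separated, and the fall was 2.53-fold (-1.34 ± 0.10, adjusted p = 3.76e-07), with -1.17 by a second probe (adjusted p = 1.27e-05). That second probe had a knockout mean at the 22.8th percentile of all probes, under the filter. Cdh13, T-cadherin, which has a lipid anchor in place of a cytoplasmic tail and binds adiponectin, read 8.55, 8.67 and 8.81 in wild type and 7.44, 7.34 and 7.38 in knockout. It fell 2.44-fold (-1.29 ± 0.10, adjusted p = 4.80e-07). The further Cdh13 probes, at -1.28 and -0.39, were both called, the former with a knockout mean at the 39.4th percentile, just under the filter. Cdh2, N-cadherin, the usual cadherin of mesenchymal and neural cells, read 7.92, 7.81 and 7.78 in wild type and 7.30, 7.19 and 7.19 in knockout. That fall was 1.53-fold with no overlap (-0.61 ± 0.10, adjusted p = 0.000553), on a probe that was dim in both groups.

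The other cadherins were dim and changed by under 1.5-fold. Cdh10, a brain cadherin, rose 1.35-fold (0.43 ± 0.095, adjusted p = 0.00467). Cdh11, the cadherin of mesenchyme and bone-forming cells, rose 1.29-fold (0.36 ± 0.11, adjusted p = 0.0315), with 0.28 by its other probe, which did not pass (adjusted p = 0.0825). The Cdh11 call was lost without wild-type array A or B (adjusted p = 0.120 and 0.0698) and without knockout array A or B (adjusted p = 0.128 and 0.103). Cdh18 read 7.56, 7.47 and 7.08 in wild type and 7.45, 7.64 and 7.53 in knockout, which overlapped (0.17 ± 0.13, adjusted p = 0.435). Cdh1, E-cadherin, the defining cadherin of epithelia, had means of 7.45 and 7.37 (-0.09 ± 0.13, adjusted p = 0.735). Cdh1 and Cdh3 are neighbours with 0 protein-coding genes between them in the RefSeq table, and they had log2 fold changes of -0.09 and -1.34.

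Protocadherins gave 4 rises among 8 genes, 0 falls and 4 genes that did not pass. The mean was higher in knockout in 7 of the 8, of which 3 did not pass. Upward calls made 21.8% of all named genes, whose median log2 fold change was 0.008. Whether the protocadherins differ from them was not tested. Pcdhb22, a member of the clustered beta protocadherins that give neurons their surface identity, read 8.59, 8.54 and 8.66 in wild type and 10.06, 10.05 and 9.93 in knockout. It rose 2.67-fold without overlap (1.42 ± 0.087, adjusted p = 3.55e-08). Genes of that cluster are close copies of each other, so its probe may also bind neighbours, which was not tested. Pcdh9, a nonclustered protocadherin of the nervous system, read 6.76, 6.65 and 6.75 in wild type and 8.22, 8.08 and 8.12 in knockout. The knockout arrays were higher by 1.42 ± 0.10 (adjusted p = 1.78e-07). The wild-type level lay at the 27.9th percentile of all probes, under the filter, so the size of this change is not settled. It ran from 0.91 without background correction to 1.80 with an offset of 16.

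Pcdh7, a nonclustered protocadherin, rose 1.48-fold (0.57 ± 0.085, adjusted p = 0.000251), with 0.23 by a second probe that did not pass (adjusted p = 0.186). Pcdh19, X-linked and known from epilepsy, rose 1.18-fold (0.24 ± 0.075, adjusted p = 0.0352) on values that stood just apart, at 10.29, 10.29 and 10.30 against 10.52, 10.59 and 10.50. The Pcdh19 call was lost without wild-type array A or B (adjusted p = 0.0912 and 0.0812), without knockout array A, B or C (adjusted p = 0.0739, 0.133 and 0.0726), with median scaling (adjusted p = 0.0627), without the filter (adjusted p = 0.0586) and without the intensity trend (adjusted p = 0.0565). Pcdh18 read 7.69, 7.92 and 7.77 in wild type and 8.02, 8.07 and 8.18 in knockout. Its groups did not overlap, and 0.30 ± 0.10 did not pass (adjusted p = 0.0609) but did without wild-type array B (adjusted p = 0.0428) and with array weights (adjusted p = 0.0473). Pcdh1 (0.31, adjusted p = 0.0640) passed without wild-type array B (adjusted p = 0.0202), and Pcdh20 (0.33, adjusted p = 0.0605) without wild-type array C (adjusted p = 0.0478) or knockout array C (adjusted p = 0.0398) and with array weights (adjusted p = 0.0492). Pcdh20 and Pcdh9 are neighbours with 0 protein-coding genes between them. Pcdhgc4 did not pass (-0.03, adjusted p = 0.936).

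**Figure D3:**
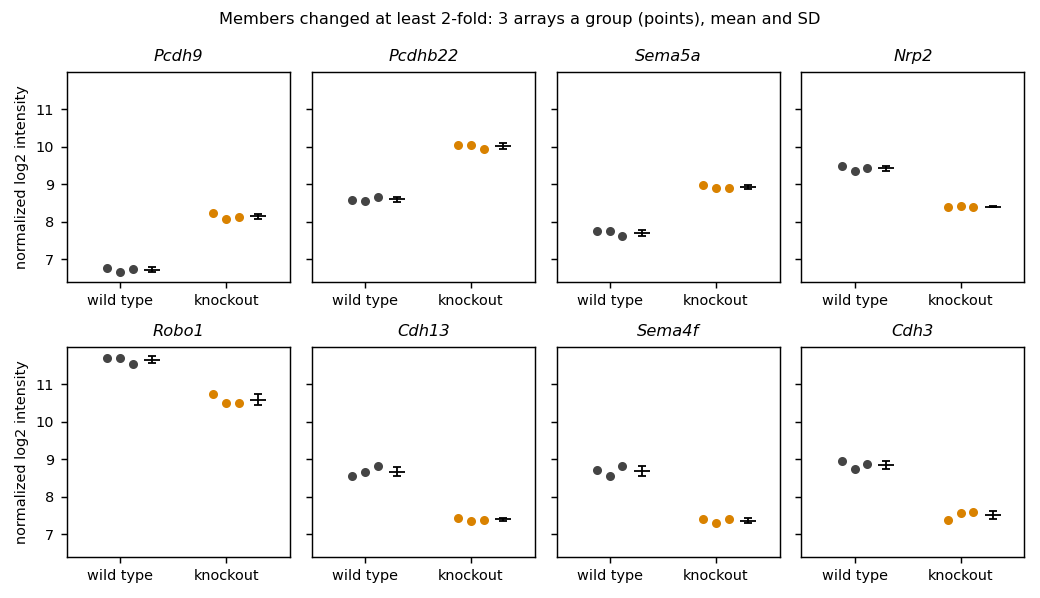
Normalized log2 intensity of the 8 members called with at least a 2-fold change, with each of the 3 arrays a group as a point and the mean and SD beside them; levels of different probes are not comparable. In each panel the groups are separate, and Pcdh9 starts from 6.72 in wild type, near the lower end of the arrays.

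Several members were measured by more than 1 probe, which gives a check within the gene. Of 15 such genes all probes were called in 5, some in 9 and none in 1, and in 0 genes were probes called in opposite directions. The 5 genes were Sema5a, Sema4f, Cdh3, Cdh13 and Plxnd1. Probes of a gene can read different transcripts, which was not tested.

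**Figure D4:**
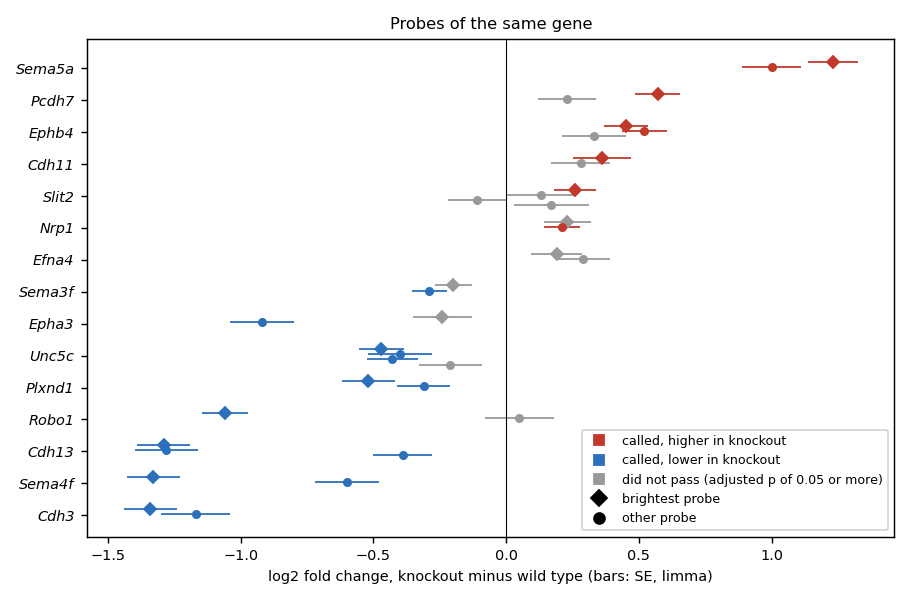
Log2 fold change of every tested probe for the 15 members with more than 1 probe (diamonds, brightest probe; circles, others; bars, SE; 3 arrays a group). The probes of Cdh3 lie together at -1.34 and -1.17, whereas those of Robo1 stand at -1.06 and 0.05.

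Other genes of these pathways were taken from lists of co-receptors, effectors, catenins, further cadherins and proteases. Of 69 tested partner genes, of 137 listed, 13 rose, 22 fell and 34 did not pass, so that 50.7% were called, against 43.6% of named genes. Upward and downward calls each made 21.8% of named genes, and no difference from them was tested. Among receptor partners and co-receptors 1 of 14 rose and 6 fell. Rgma, a lipid-anchored repellent that binds neogenin, rose 3.40-fold (1.77 ± 0.097, adjusted p = 1.11e-08), whereas Flrt1 and Flrt3, adhesion proteins that bind Unc5 receptors and latrophilins, fell 2.62-fold and 1.69-fold (adjusted p = 1.06e-06 and 6.47e-06). The other falls were those of Flrt2, the syndecans Sdc2 and Sdc3, and the glypican Gpc1, heparan sulfate carriers that assist Slit signalling. Sdc4 did not pass (-0.28 ± 0.093, adjusted p = 0.0527), but did without wild-type array B (adjusted p = 0.0486) or knockout array C (adjusted p = 0.0310), with median scaling (adjusted p = 0.0254), with cyclic loess (adjusted p = 0.0451) and in the processed table (adjusted p = 0.0372).

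Of 20 cytoplasmic effectors 4 rose, 4 fell and 12 did not pass, so that 40% were called, against 43.6% of named genes. The kinase gene Fes, which acts downstream of plexin A receptors, rose 1.53-fold (0.61 ± 0.10, adjusted p = 0.000603), and Gipc1, an adaptor of neuropilins, 1.31-fold (0.39 ± 0.084, adjusted p = 0.00425). Tagln2, an actin-binding protein, fell (-0.59 ± 0.076, adjusted p = 6.10e-05). The other rises were Srgap3 (0.43) and Rnd3 (0.41), and the other falls Rock1 (-0.52), Dpysl3 (-0.42) and Rasa1 (-0.34). The groups of Rock1 and Dpysl3 overlapped. Without the intensity trend Rnd3, Rock1, Dpysl3 and Rasa1 did not pass (limma adjusted p = 0.112, 0.0596, 0.0586 and 0.0501). Their calls were also lost when certain single arrays were left out. Dpysl2, a collapsin response mediator, had 0.11 ± 0.091 and did not pass (adjusted p = 0.471). Of 16 catenins and junction proteins 3 rose and 7 fell. Among the falls Cask, Pkp2 and Afdn, at -0.22, -0.22 and -0.36, did not pass without the intensity trend (limma adjusted p = 0.11, 0.102 and 0.0513). They also lost their calls when certain single arrays were left out. The nectin gene Nectin2 rose 2.18-fold (adjusted p = 6.71e-07) and the scaffold Magi1 1.98-fold (adjusted p = 2.56e-06), while Vcl, vinculin, fell 1.49-fold (adjusted p = 4.34e-06). Ctnnb1 and Ctnnd1, the catenins that bind classical cadherins, had 0.11 and 0.12 and did not pass, nor did Nectin3 at 0.15. The Ctnnb1 probe read only 8.27 in wild type and 8.38 in knockout, at the 71.9th and 72.8th percentiles of all probes. Any Ctnnb1 probe that did not vary would carry no gene name here.

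Of 6 further cadherin superfamily genes Fat4 rose by 0.41 ± 0.13 (adjusted p = 0.0421), Cdhr1 fell by 0.40 ± 0.11 (adjusted p = 0.0156) and 4 did not pass, Fat1 among them (0.08). The Cdhr1 call was lost without wild-type array A (adjusted p = 0.0720) or knockout array B or C (adjusted p = 0.0739 and 0.0639). The Fat4 call was lost without wild-type array A or C (adjusted p = 0.102 and 0.117) and without knockout array A, B or C (adjusted p = 0.135, 0.0709 and 0.116) or the intensity trend (adjusted p = 0.0675). Among proteases and the transcription factors that repress cadherins in epithelial-mesenchymal transition 4 of 13 rose and 4 fell. Adam9 and Psen2, from protease families that cut cell surface proteins, rose 1.68-fold and 1.65-fold (adjusted p = 3.87e-06 and 0.000127). The proteases Adam15, Adam12 and Adam8 fell, at -0.47, -0.57 and -0.36 (adjusted p = 0.00046, 0.00054 and 0.033), and Adam10 and Adam17 did not pass. The Adam8 call was lost without wild-type array B or C and without knockout array A, B or C. Snai1, the repressor Snail, rose 1.45-fold (0.53 ± 0.086, adjusted p = 0.000459). Zeb1, another repressor that reads the E-box, fell 1.30-fold (-0.38 ± 0.072, adjusted p = 0.00166), and Twist1 did not pass (-0.24, adjusted p = 0.0581) but did without wild-type array A (adjusted p = 0.0401), with median scaling (adjusted p = 0.0312), with the filter set to the 70th percentile (adjusted p = 0.0399) and in the processed table (adjusted p = 0.0442).

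**Figure D5:**
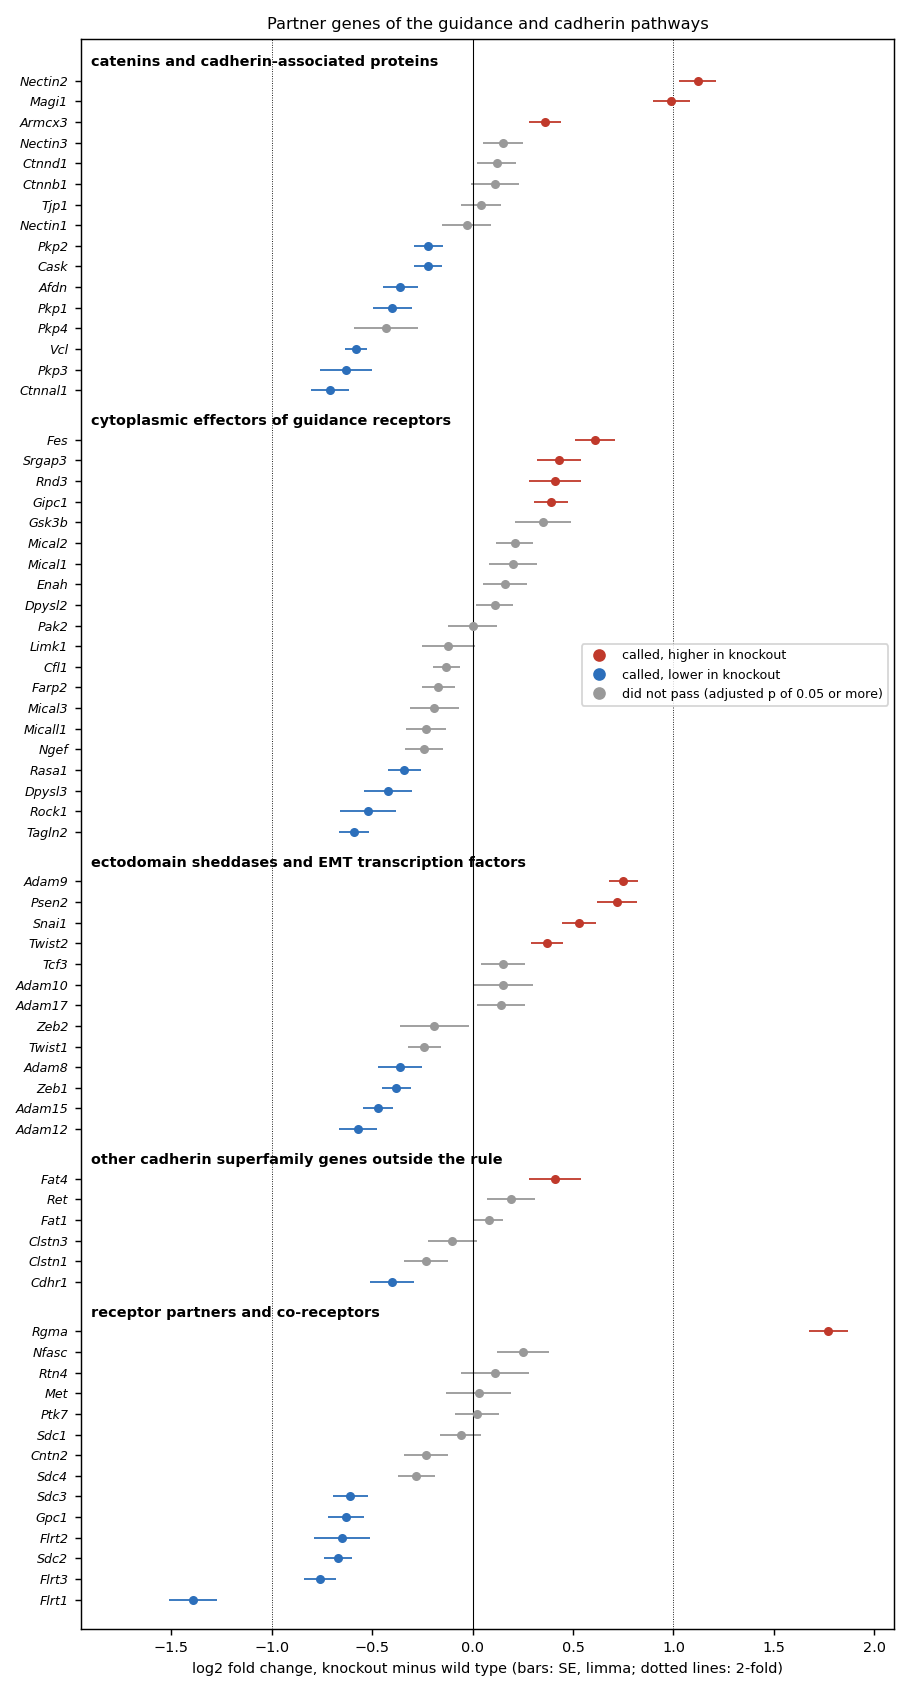
Log2 fold change of the 69 tested partner genes, knockout minus wild type, with SE bars (3 arrays a group), by list and call; dotted lines mark 2-fold. Rgma has the largest rise at 1.77 and Flrt1 the largest fall at -1.39, and Ctnnb1 and Ctnnd1 lie near 0.

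Markers of other cell types that use guidance genes were read beside these results. Of 17 neural and glial markers 6 were tested, with 0 up and 3 down (Stmn2 at -2.79, Mbp at -0.95 and Nes at -0.94), while Dcx, Syp and Ncam1, at -0.15, 0.10 and 0.07, did not pass. Their mean level ran from 9.63 to 9.86 in wild type and from 8.94 to 9.02 in knockout. Smooth muscle and myofibroblast markers fell in 4 of 4 tested, of 8 listed, while downward calls made 21.8% of named genes. Their mean level ran from 12.86 to 12.97 in wild type and from 11.92 to 12.04 in knockout. Myl9 had -2.04, Tagln -1.02, Tpm2 -0.32 and Acta2 -0.26. The Tpm2 and Acta2 calls were lost without the intensity trend (limma adjusted p = 0.0558 and 0.0542). That of Tpm2 was also lost without knockout array A (adjusted p = 0.0513). The mean levels of both lists were lower on every knockout array than on any wild-type array. Among members known from the nervous system, Pcdhb22, Pcdh9, Cdh10, Sema3a and Pcdh19 rose, by 1.42, 1.42, 0.43, 0.33 and 0.24. Cdh2, Unc5c and Robo1 fell, at -0.61, -0.47 and -1.06. These genes were named without a fixed list, so the number on each side has no meaning. Of 12 endothelial markers 5 were tested, 2 up and 2 down, with mean levels of 9.40 to 9.56 and 9.34 to 9.37. Epithelial markers gave 1 rise and 1 fall in 3 tested of 12, with mean levels of 8.68 to 8.75 and 8.61 to 8.83, and of 8 leukocyte markers 2 were tested and 0 passed, with mean levels of 8.57 to 8.90 and 8.67 to 8.75. The defining markers Sox10, Gfap, Pecam1, Epcam and Ptprc had no named probe, and the part of other cells in the results was not tested.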

How the data were processed

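Total RNA of 6 fibroblast samples was biotin-labelled and hybridised to Illumina arrays. The authors deposited linear probe intensities for each array, made with BeadStudio 3.0 per the submitters' processing notes, and a table of processed intensities for 12534 probes. The files give no detection p-value or slide, so background and slide were not examined. The processed table lists only probes whose highest value is at least 1.20 times the lowest, and only these have gene names. The highest value of every listed probe is also at least 273, so the dimmest probes are not among them. Of them 10653 had 1 gene symbol, 5 several and 1876 none.

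Intensities were background-corrected (normexp, offset 50), put on the log2 scale and quantile-normalized, and probes above the 40th percentile of mean intensity were tested with limma 3.58.1 in R 4.3.3 (eBayes with an intensity trend, two-sided, Benjamini-Hochberg over 27168 probes). The offset shrinks changes where intensity is low. Errors of fold changes are SEs, and 3 arrays a group limit the precision. The procedure was tested on simulated data with changes set only in bright probes, so that test does not speak for dim members.

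Full values are given for members called with at least a 1.5-fold change and, in each family, for the called gene of lowest p and the uncalled gene of highest intensity. Partner lists give the 3 called genes of lowest p and the brightest uncalled gene, and further genes were named after their values were seen. The members and lists were chosen with earlier results of these data known. Alternatives were background correction, normalization, filter, trend, array weights, the processed table, the probe of highest variance, a replicate block and leaving out each array.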

Additional observations from a re-analysis of the deposited data

How the results depend on the processing

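The counts of members were recomputed under 17 alternatives, 6 of which left out 1 array each. Rising members numbered 14 to 19 and falling members 9 to 12 when 1 array was left out. Rising partner genes then numbered 11 to 13 and falling partner genes 16 to 21, against 13 and 22 with all arrays. Without the intensity trend 11 partner genes rose and 16 fell. Of the 29 called members 23 were called in every alternative that tested them, and of the 22 others 15 were called in none. The 6 whose call was lost in at least 1 alternative were Cdh11, Efnb1, Epha7, Pcdh19, Plxnb1 and Slit2. No member changed sign with a call on either side. The number of members changed at least 2-fold was 8, and it was 3 without background correction, 3 in the processed table and 5 with a filter at the 70th percentile, which tested 28 members. The replicate letters did not pair the arrays: deviations from the group means correlated at 0.101, -0.09 and 0.075 for A, B and C, and not every array correlated best with its own letter. A replicate block gave 17 rises and 11 falls among the members, and 5273 called probes against 5423. With it Cdh11 (adjusted p = 0.0512 by limma) and Pcdh19 (0.0561) did not pass and Nrp1 did (0.0343), as did the partner gene Sdc4 (0.0134). Without detection values, a dim signal cannot be told from background.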
